A study of Homo sapiens with 6 samples.

Results

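The subject here is the m6A peaks in 5 genes of the Notch pathway: the receptors NOTCH1, NOTCH2 and NOTCH3 and the ligands JAG1 and JAG2. N6-methyladenosine (m6A) was mapped by MeRIP-seq, in which RNA fragments are pulled down with an antibody against m6A (IP) and sequenced beside RNA that was not pulled down (Input). The material was total RNA of wild-type HEK293T cells, a line derived from human embryonic kidney that expresses SV40 large T antigen, with no treatment named, and the 6 libraries were the IP and the Input of 3 repeats, named MeRIP 1, MeRIP 2 and MeRIP 3. Each repeat has 1 deposited peak list, made from its own IP and Input. Whether separate cultures were used for the repeats is not stated in the labels, so the spread between lists may be technical. A peak was counted as a member if its centre lay in the hg19 interval of a gene on the strand of that gene. By this rule 87 of the 61147 peaks in the 3 lists were members: 30 of 21286 in MeRIP 1, 27 of 19851 in MeRIP 2 and 30 of 20010 in MeRIP 3. Same-strand peaks overlapping by 1 bp or more were joined into regions across lists, which gave 35 Notch regions among 25737 regions in all. All 5 intervals lie on the minus strand. No peak of the plus strand had its centre in them, and no peak crossed an end of an interval with its centre outside.

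Notch receptors are single-pass membrane proteins whose extracellular part is built mainly of EGF-like repeats. Binding of a ligand such as JAG1 or JAG2 on a neighbouring cell leads to cleavage by an ADAM protease and then by gamma-secretase. The released intracellular part goes to the nucleus and, with RBPJ and a Mastermind protein, activates target genes. In mRNA, m6A is added mostly by METTL3 with METTL14 and is known to lie mainly near stop codons, in 3′ untranslated regions and in long internal exons. METTL16, which the series concerns together with SF3B4, methylates a separate set of RNAs.

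The main pattern was that the most downstream region of each of the 5 genes was wide and high-scoring, with narrower regions upstream. It stopped at least 729 bp before the end of the interval in NOTCH2 and 1263 bp in JAG1. A background from the whole series is given below. Of the 35 Notch regions, 24 (68.6%) were found in every list, 4 (11.4%) in a pair of lists and 7 in a single list. Over all regions of the series, 59.3% were found in every list, 17.9% in a pair and 22.8% in a single list. The receptors held 28 regions, 20 of them in all 3 lists, and the ligands held 7, of which 4 were in all 3 lists. NOTCH1 and NOTCH3 had 11 regions each, NOTCH2 had 6, JAG2 had 5 and JAG1 had 2. The number of regions did not follow the length of the interval, which is 158148 bp for NOTCH2, 51425 bp for NOTCH1, 41353 bp for NOTCH3, 36365 bp for JAG1 and 27852 bp for JAG2. No expression values were used here, and a peak can be called only where the RNA was sequenced deeply enough, so an absent peak is not an unmethylated site.

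**Figure D1:**
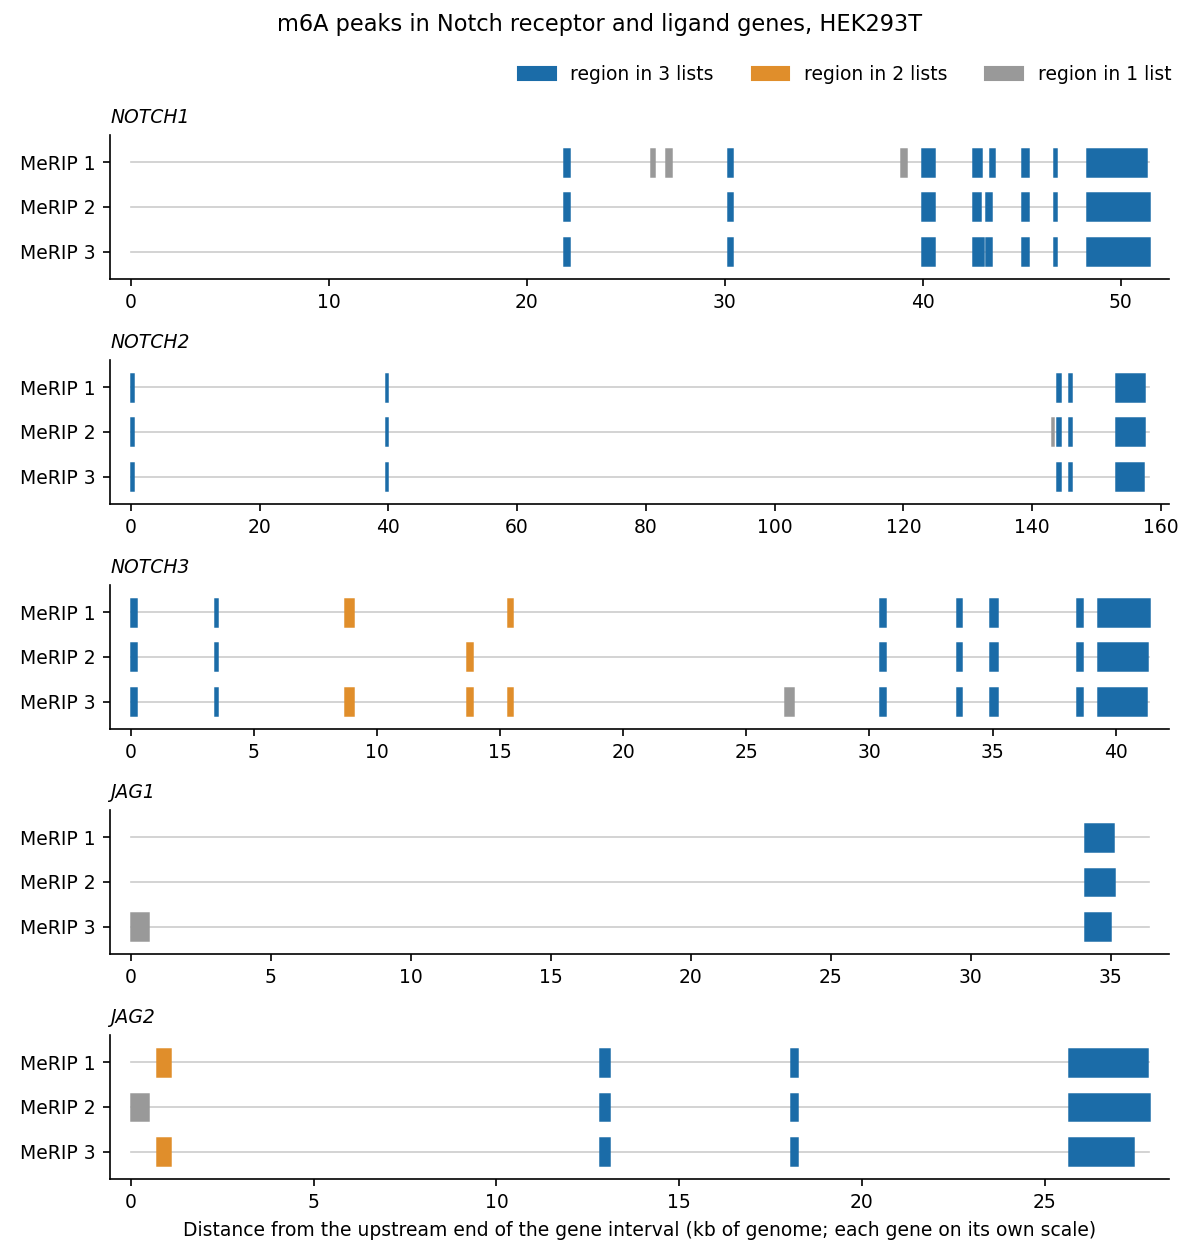
Peaks of each list in the 5 genes, drawn at their distance in kb from the upstream end of the gene interval, with each gene on its own scale. Bars are peaks with a thin outline that keeps the narrowest visible, and colours give the number of lists with a peak in the region. The most downstream region of every gene is wide and found in all 3 lists.

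Each peak carries a score given by the authors. The lowest was 50 in each list and 3100 was the most frequent value, the range of scores that MACS gives as a scaled −log10 p-value; no header states this. The score measures evidence for enrichment in IP over Input and not a methylation level, so ratios of scores are not folds of methylation. Scores of 3100 or more are called the ceiling. Member peaks scored lower than a list's peaks in general: their median was 206 ± 13.0, against 428 ± 13.0 for all peaks (SD, n = 3 lists). Regions in all 3 lists were also narrower, with a median width of 300.5 bp for the 24 Notch regions and 538 bp for all 15265. At least 1000 was scored in every list by 5 of the 24 Notch regions (20.8%), against 36.2% of all regions in all 3 lists. At the ceiling in every list were 2 of the 24 (8.33%), in NOTCH2 and JAG2, against 18.9% of all, and 16 (66.7%) stayed under 1000 in every list, against 49.1%. Over 1000 bp wide were 5 (20.8%), against 31.8%. These are descriptions, and no test was made of the Notch regions against the others.

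NOTCH1, a receptor widely used in development and often mutated in T-cell leukaemia, ended in a region at chr9:139388896-139392010. Its score was 2947 in MeRIP 1 and 3100 in both MeRIP 2 and MeRIP 3, and its width was 2990, 3097 and 3115 bp. Each list gave it the highest NOTCH1 score. The next strongest was a region of 572 bp at chr9:139399762-139400333, which scored 1299, 969 and 934 in MeRIP 1, 2 and 3 and had the same edges in all 3 lists. It was the only other NOTCH1 region with any score over 500.

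The other 6 NOTCH1 regions of all 3 lists were weak. Between the 572 bp region and the downstream end lay 4 of them. The region at chr9:139397251-139397782 scored 107, 206 and 189 in MeRIP 1, 2 and 3, and the region at chr9:139396724-139397139 scored 192, 205 and 270. Further downstream, the region at chr9:139395004-139395299 scored 89.9, 201 and 294, and that at chr9:139393564-139393711 scored 93.9, 100.4 and 159. MeRIP 1 had the lowest score of the 3 lists in all 4 of these regions. Upstream of the 572 bp region, the region at chr9:139409935-139410168 scored 148, 111 and 169, and the region at chr9:139418169-139418431 scored 201, 99.0 and 112. The region at 139418169 is the most upstream in NOTCH1 and starts 21883 bp after the upstream end of the interval, so no list placed a peak in that stretch. MeRIP 1 alone had 3 more NOTCH1 regions, at chr9:139401168-139401425, chr9:139413043-139413276 and chr9:139413895-139414017. Their scores were 59.3, 50.5 and 59.9, close to the lowest score listed.

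NOTCH2, a paralogue of NOTCH1 with known roles in kidney, liver and B-cell development, had the widest region of the set, at chr1:120454899-120459317. It scored 3100 in all 3 lists and was 4419, 4309 and 4289 bp wide in MeRIP 1, 2 and 3. Of the peaks of a list, 99.1 to 99.3% were narrower. The other NOTCH2 regions found in all 3 lists were a pair toward the downstream end and a pair in the upstream part, at 0 and 39707 bp from the upstream end of the interval. In a stretch of 103294 bp between these pairs no list had a peak. Of the downstream pair, the region at chr1:120467928-120468433 scored 1628, 977 and 1330, and the region at chr1:120466260-120466607 scored 747, 906 and 875.

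At the upstream end of NOTCH2, a region of 370 bp at chr1:120611948-120612317 scored 1793, 915 and 1115. It was the strongest region at an upstream end among the 5 genes. A region of 82 bp further inside the gene, at chr1:120572529-120572610, scored 320, 191 and 197, with MeRIP 1 the highest in both. The upstream part of NOTCH2 has near-identical copies on the same chromosome, the NOTCH2NL genes, and no source used here states how reads that match several places were handled. The values of these regions are therefore uncertain. A region of 113 bp at chr1:120469122-120469234 was listed in MeRIP 2 alone, with a score of 50.8.

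NOTCH3, the receptor of vascular smooth muscle that is mutated in the small-vessel disease CADASIL, had regions along its whole length. Its most downstream region, at chr19:15270444-15272525, scored 1551, 2050 and 2175 in MeRIP 1, 2 and 3. That is below the ceiling in every list, unlike the last regions of NOTCH2 and JAG2. Upstream of it lay 4 regions of all 3 lists with scores between 120 and 883. The region at chr19:15273144-15273373 scored 178, 300.5 and 273, and the region at chr19:15281142-15281364 scored 467, 297 and 328. The region at chr19:15276598-15276902 scored 883 in MeRIP 1 but 325 and 226 in MeRIP 2 and 3, and had the largest ratio of highest to lowest score among the Notch regions, 3.91. The region at chr19:15278060-15278222 scored 133, 245 and 120.

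Further upstream the lists differed more in which NOTCH3 regions they held. NOTCH3 held 3 of the 4 Notch regions found in 2 lists. MeRIP 1 and MeRIP 3 shared a region at chr19:15302771-15303109, with scores of 190 and 145, and a region at chr19:15296298-15296490, with 164 and 187. MeRIP 2 and MeRIP 3 shared a region at chr19:15297916-15298149, with 75.5 and 92.8. MeRIP 3 alone listed a region at chr19:15284879-15285211, with a score of 52.8. A region of 79 bp at chr19:15308311-15308389 was in all 3 lists despite low scores of 75.9, 74.3 and 54.8.

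JAG1, the ligand mutated in Alagille syndrome, had the fewest peaks. A single region was found in all 3 lists, at chr20:10619593-10620603, with scores of 1331, 1916 and 1044 in MeRIP 1, 2 and 3 and widths of 980, 1011 and 889 bp. It was the lowest-scoring of the 5 downstream regions in MeRIP 1, 2 and 3 alike. The only other JAG1 region was at chr20:10654098-10654694 in MeRIP 3 alone, with a score of 59.5. No list had a peak in the 33494 bp between them.

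JAG2, a second ligand of the Jagged family, ended in a region at chr14:105607318-105609507 that was at the ceiling of 3100 in all 3 lists. Its regions inside the gene were weak: chr14:105616941-105617114 scored 206, 148 and 151, and chr14:105622075-105622326 scored 59.6, 216 and 224. In the 5′ part of JAG2 the listed peaks differed between lists. MeRIP 1 and MeRIP 3 had the same peak at chr14:105634094-105634444, with scores of 78.9 and 124, whereas MeRIP 2 had a peak at chr14:105634692-105635161 with a score of 63.2. These regions lay 247 bp apart and no list had both. The scores were low and no list holds a score under 50, so a weaker peak at the other place would not be seen.

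**Figure D2:**
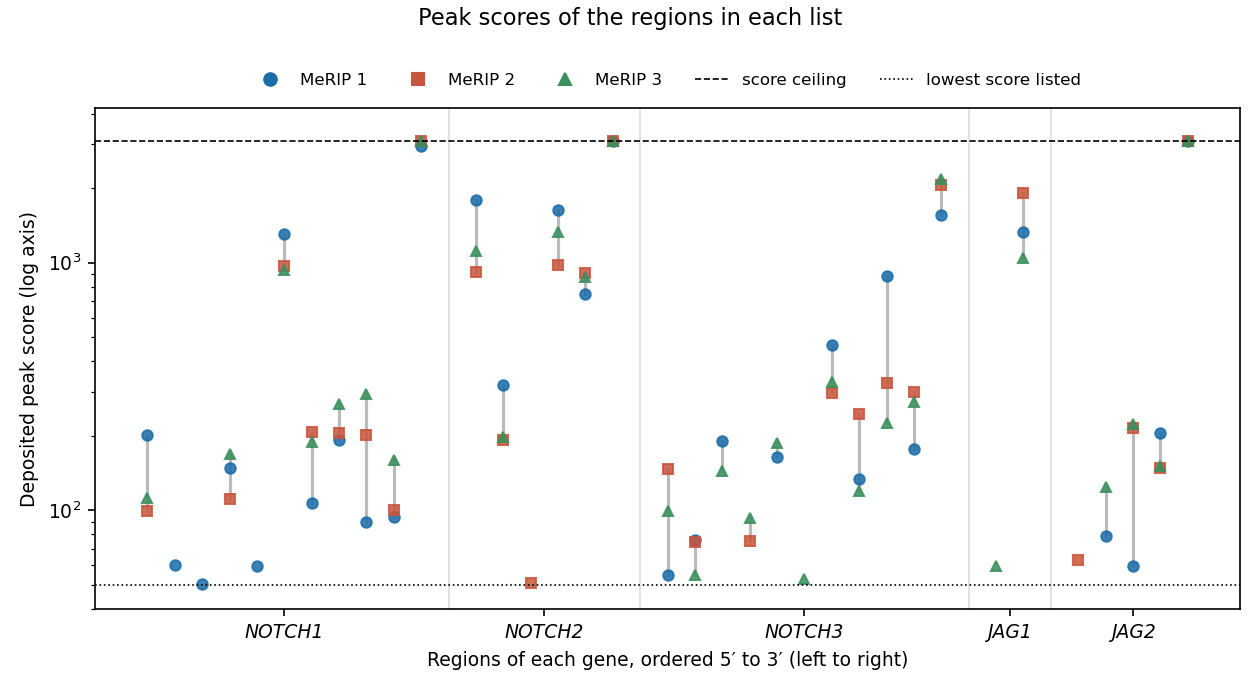
Deposited peak score (log axis) of all 35 Notch regions in each list, ordered 5′ to 3′ within each gene, with a line joining the lists. The most downstream region of every gene scores from 1044 to 3100, and the 7 regions of a single list score from 50.5 to 63.2, just above the lowest score listed.

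The downstream regions were then set side by side. In the 4 genes with at least 2 regions in all 3 lists, the most downstream region was also the widest and had the highest lowest score (4 of 4 genes). Annotation-free clusters of the whole series, made by chaining regions in all 3 lists within 10 kb on the same strand, gave a background: the most downstream region was both in 45.6% of 2544 clusters, the widest in 62.6% and the best scored in 56.3%. Clusters are not genes, since neighbouring genes can be chained and long introns split, so the shares are a background only. The downstream region made up 56.4 ± 3.97% of the bases under NOTCH1 peaks, 76.4 ± 1.01% for NOTCH2, 53.0 ± 6.30% for NOTCH3 and 71.3 ± 1.94% for JAG2 (SD, n = 3 lists). For JAG1 it was all of them in MeRIP 1 and MeRIP 2 and 59.8% in MeRIP 3.

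The downstream regions also shared a pattern of edges. All 5 had the same upstream edge to the base in the 3 lists while the downstream edge moved. Of the 24 Notch regions with 1 peak in each list, 17 (70.8%) had both edges identical, against 72.7% of all such regions. The upstream edge alone was identical in 6 (25.0%), against 20.4% of all. No Notch region shared the downstream edge alone (4.7% of all), and 1 shared neither (2.23% of all). Split by width, the 5 Notch regions over 1000 bp all shared the upstream edge alone, against 48.4% of the series' regions over 1000 bp. The sets are unlike: these 5 are each the last of a gene, and the series' regions lie anywhere. The JAG1 region passed 1000 bp in MeRIP 2 alone. Of the 19 narrower Notch regions 17 (89.5%) had both edges identical, close to the 86.8% of the series. The exceptions were neighbours in NOTCH1, chr9:139397251-139397782 and chr9:139396724-139397139. At 139397251 the upstream edge was shared, and at 139396724 MeRIP 1 placed a peak of 217 bp where MeRIP 2 and MeRIP 3 had 251 and 243 bp.

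How far the downstream regions reached differed between genes. The moving edge varied by 125 bp between lists in NOTCH1, 130 bp in NOTCH2, 122 bp in NOTCH3, 122 bp in JAG1 and 421 bp in JAG2. In NOTCH1, NOTCH3 and JAG2 the farthest list came within 6, 4 and 8 bp of the downstream end of the interval. Which list reached farthest was not the same: MeRIP 3 in NOTCH1, MeRIP 1 in NOTCH3 and MeRIP 2 in JAG2. In NOTCH2 the edge stayed 729, 839 and 859 bp short of that end in MeRIP 1, 2 and 3, and in JAG1 it stayed 1294, 1263 and 1385 bp short. Thus at least 1263 bp at the end of the JAG1 interval had no peak in any list, while the ends of NOTCH1, NOTCH3 and JAG2 were nearly reached in at least 1 list.

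**Figure D3:**
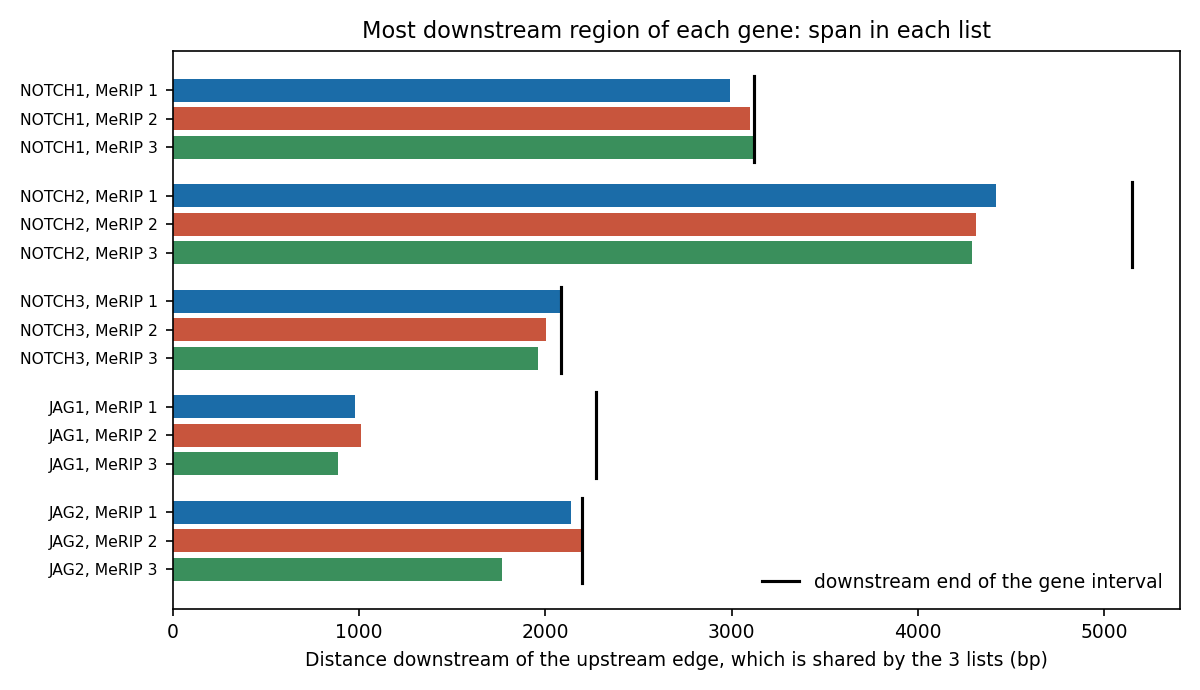
Span of the most downstream region of each gene in each list, in bp from its upstream edge, which is the same in the 3 lists; the black tick marks the downstream end of the gene interval. The peaks of NOTCH1, NOTCH3 and JAG2 come within 8 bp of the tick in at least 1 list, and those of JAG1 stop at least 1263 bp before it.

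At the other end of the genes, 4 of 5 had a region whose upstream edge was exactly the upstream end of the gene interval. NOTCH2 had it in all 3 lists, as given above, and NOTCH3 had it in all 3 lists at chr19:15311599-15311792 with scores of 54.6, 147 and 99.3. JAG1 had it in MeRIP 3 alone and JAG2 in MeRIP 2 alone, with scores of 59.5 and 63.2. NOTCH1 had none. Without hg19 annotation, no share of genes with such an edge was made for the rest of the series. Whether an edge exactly at the start of a gene is usual in these lists was therefore not tested. The antibody against m6A is known to bind also m6Am, a modified adenosine that can be the first transcribed base of an mRNA, so the bases around the start are shown. They are RefSeq's start sites on GRCh38.p14, minus strand, with the 20 bases before the start in lower case and the first 10 transcribed bases in capitals.
NOTCH1, chr9:136546039-136546068: gcacctcgactctgagcctcACTAGTGCCT
NOTCH2, chr1:120069653-120069682: ctgaggcggaaggacacacgAGGCTGCTTC
NOTCH3, chr19:15200986-15201015: ggggcggcccggccgcctcaCTTCGGCGAA
JAG1, chr20:10673990-10674019: cagccccggccgctgctgccAGACGGGCTC
JAG2, chr14:105168767-105168796: gaatgggcgagcgagctgtcAGTCTCGTTC
The first transcribed base is A in NOTCH1, NOTCH2, JAG1 and JAG2 and C in NOTCH3. Of the genes with a first A, NOTCH2 had a region at its start in every list, JAG1 and JAG2 in a single list each and NOTCH1 in none. NOTCH3, with a first C, had it in every list. The gene spans of this build differ in length from the hg19 intervals, by 191 bp for NOTCH1, -38 bp for NOTCH2, 605 bp for NOTCH3, -49 bp for JAG1 and -70 bp for JAG2 (GRCh38.p14 minus hg19), so the start shown may not be the base at which the hg19 interval begins. MeRIP-seq peaks do not separate m6A from m6Am, and that was not tested. GGAC, a core of the METTL3 and METTL14 site, was searched on the RNA strand in the first 50 transcribed bases. It was in NOTCH3 alone of the 5 genes and in 18.9% of 35116 RefSeq starts. Neither GGACT, which contains GGAC (4.90% of starts), nor TACAGAGAA, the sequence of known METTL16 targets (0.0313% of starts), was in any of the 5. At shares this low, absence from 5 starts says nothing of METTL16 or of the peaks. The sequence under the regions themselves was not analysed here, so the motif counts describe RefSeq starts and not peaks.

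Scores of the same region were compared between lists, over the 21 Notch regions below the ceiling in all 3. In 15 of them (71.4%) the highest score was within 2-fold of the lowest, against 52.4% of the series' 11131 such regions. The median ratio of highest to lowest was 1.69 for the Notch regions and 1.94 for all. The steadiest was chr1:120466260-120466607 in NOTCH2, with a ratio of 1.21. Over 2-fold lay 3 regions of NOTCH3, 2 of NOTCH1 and 1 of JAG2, and none of NOTCH2 or JAG1.

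On a log scale, MeRIP 1 was the list farthest from the median of the 3 scores in 14 of the 21 regions (66.7%), against 37.1% of the series' 11131 regions. Among regions that spread over 2-fold it was so in 5 of 6 (83.3%), against 38.4% of 5297 in the series. On the deposited scale MeRIP 2 was instead the farthest at chr19:15311599-15311792 in NOTCH3, with scores of 54.6, 147 and 99.3. No test was made of these shares, and the Notch regions are few. The log2 ratio of scores had an SD of 0.89 between MeRIP 2 and MeRIP 1, 0.90 between MeRIP 3 and MeRIP 1, and 0.46 between MeRIP 3 and MeRIP 2. In the whole series these SDs, in the same order, were 1.01, 1.04 and 0.94, a smaller gap between the pairs. The direction was not the same throughout: MeRIP 1 was the lowest in JAG2 at chr14:105622075-105622326 and the highest in NOTCH3 at chr19:15276598-15276902. The median log2 ratio over the 21 regions was 0.09 for MeRIP 2 over MeRIP 1. It was -0.15 for MeRIP 3 over MeRIP 1, and both were smaller than these SDs. With MeRIP 1 left out, 21 of 22 regions (95.5%) were within 2-fold. It was 21 of 24 without MeRIP 2 and 16 of 21 without MeRIP 3. A pair of lists can spread less than 3 lists by construction, and MeRIP 1 was singled out from these same scores.

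**Figure D4:**
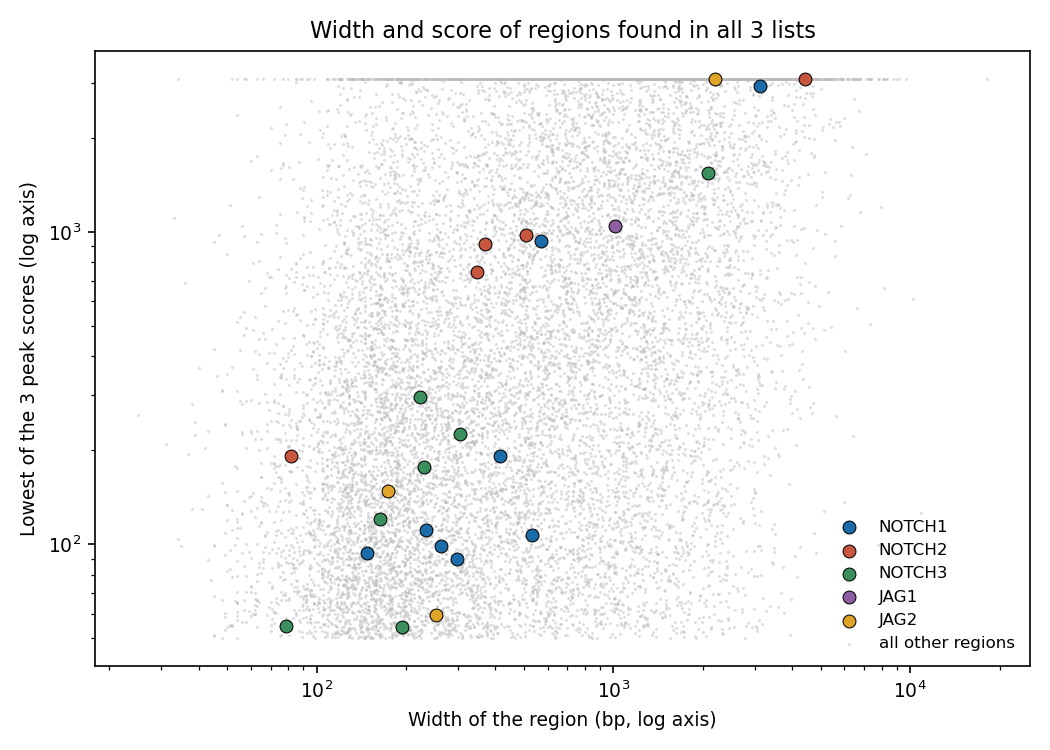
Width of a region in bp and the lowest of its 3 scores (both log axes), for the 24 Notch regions in all 3 lists, coloured by gene, and for all other regions in all 3 lists, in grey. The 5 widest Notch regions, 1011 to 4419 bp, hold the 5 highest values, and the others are at most 572 bp wide.

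By genomic position, introns included, Notch regions lay mostly in the downstream part of the intervals. Of the 24 regions in all 3 lists, 18 had their centre past the midpoint of the interval and 15 past 75% of its length. Of all 35 Notch regions, 23 had their centre past the midpoint. No hg19 annotation was used, so no such share was made for other genes. Whether the Notch genes differ in this was not tested. Leaving out the 5 downstream regions, the peaks of the 19 others scored 54.6 to 1793, with a median of 205. Scores over 500 in at least 1 list were given to 5 of the 19, a limit chosen after the values were seen: 3 in NOTCH2, 1 in NOTCH1 and 1 in NOTCH3. The NOTCH3 region passed it in MeRIP 1 alone. These 5 were 305 to 572 bp wide and the remaining 14 were 79 to 532 bp wide, so the widths overlap.

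Low scores were found among regions of every degree of recurrence. The 7 regions of a single list scored 50.5 to 63.2, the peaks of the 4 regions in 2 lists scored 75.5 to 190, and the 72 peaks of the regions in all 3 lists scored 54.6 to 3100, with a median of 271. The last range overlaps both of the others. In NOTCH3, chr19:15308311-15308389 was in every list at scores no higher than 75.9. The single-list regions were 3 of MeRIP 1, all in NOTCH1, 2 of MeRIP 2, in NOTCH2 and JAG2, and 2 of MeRIP 3, in NOTCH3 and JAG1. No list holds a score under 50, and all 7 single-list regions lay near that limit. No such count is given here for the 5877 single-list regions of the series, so this is not a trait of the Notch regions.

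The numbers in the peak names have gaps, so the lists may hold only part of the peaks that were called. That each missing number stands for a called peak was not checked. Numbers rose with position on all 24 chromosomes of each list. Between the first and last member peak of each gene, 21 of 51 numbers were not listed in MeRIP 1, 21 of 48 in MeRIP 2 and 15 of 45 in MeRIP 3. These are 41.2%, 43.8% and 33.3% of the numbers, against 78.0%, 73.4% and 73.3% over the whole of each list, which also counts numbers that fall between genes. The span of each gene begins and ends at a listed peak by construction, which lowers the Notch shares. In NOTCH1 the counts were 5 of 16, 9 of 17 and 7 of 15, and in NOTCH3 9 of 18, 7 of 15 and 3 of 14. Any peaks behind the missing numbers have no position or strand in the lists. The name of each list includes mRNA, but why numbers are missing is not stated in the sources used here.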

How the data were processed

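MeRIP-seq libraries of IP and Input RNA were made from HEK293T total RNA after removal of rRNA and sequenced in pairs of 150 bp reads (per the labels' protocols). HISAT2 2.0.4, cutadapt 1.9.3 and hg19 are named in the submitters' processing notes. Peak names carry the word MACS, with no version or settings stated in the sources used here. For each repeat the authors deposited a single list of stranded peaks, each with a score, under a name that includes mRNA and m6A. No header states the scale of the deposited score, so it was read from the values. Read depth is unknown from peak lists, so no counting interval is given.

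Starts were counted from 1. Peaks were merged across lists at 1 bp of overlap on the same strand, and edges were compared in regions with 1 peak in each list. No test was run, since each list already sets IP against Input and holds no value per library. Shares over all regions of the series stand beside the Notch counts as background and include the Notch regions. The members, lists and alternatives were chosen with earlier results of these data known. All 5 genes and every region in them are named. Other genes of the Notch pathway, exons and stop codons were not analysed here, because no hg19 annotation was used; sequences of RefSeq start sites matched all 5 genes by symbol. Region building was tested on simulated lists. The work used Python 3.11.15 with pandas 2.3.3 and NumPy 2.4.6, and Matplotlib 3.10.9 for plots.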

Additional observations from a re-analysis of the deposited data

How the results depend on the processing

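No paired analysis was possible because the lists hold peaks called on IP and Input together, with no value per library to fit. The 24 Notch regions in all 3 lists stayed 24 with any overlap of peak and interval or with strand ignored. Neither setting had a further member peak to add, so these settings were no check of the count. The regions in all 3 lists numbered 19 with peaks of at most 1000 bp and 23 by 50% reciprocal overlap, counted as peaks of MeRIP 1. Keeping only peaks that reached their list's median score gave 9, since fewer peaks entered. Regions with identical edges numbered 17, and 4 under the same restriction. Regions at the ceiling in all 3 lists numbered 2 of 24, and 0 with peaks of at most 1000 bp, which removes the wide regions by construction. Without 1 repeat, regions in both other lists numbered 24 to 27, those with identical edges 17 to 20 and those at the ceiling 2 to 3. The alternatives that follow, except the last, were chosen after seeing the data. Leaving out 1 repeat gave 76.2 to 95.5% of regions within 2-fold, against 71.4% over 3 lists, the highest without MeRIP 1; a pair of lists can spread less than 3 lists by construction. The upstream edge alone was shared in 6 regions whichever repeat was left out, and in 5 under that restriction on scores. With no ceiling applied, 75% of regions were within 2-fold. That setting adds the last regions of NOTCH1, NOTCH2 and JAG2, whose scores at the ceiling are alike by construction. Depth is unknown, so absence from a list says nothing of methylation there.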
